A study of Homo sapiens with 12 samples.

Results

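The transcriptomes of ANT1 knockout and wild type cells were compared after both had been exposed to bleomycin. The comparison used 6 of the 12 libraries of the series, chosen by their labels: 3 of ANT1 knockout cells in bleomycin and 3 of wild type cells in bleomycin, fitted on their own. All 12 libraries came from Beas-2b, an established line of human bronchial epithelial cells, and each held poly(A)-selected RNA that was sequenced and counted per gene. The knockout cells carried a CRISPR knockout of SLC25A4, the gene of ANT1, and the wild type cells did not. Both genotypes received bleomycin for 2 days, at 10 mg/ml by the labels, as a way to bring on senescence. The dose and its unit are as the labels print them and could not be checked here. The labels speak of knockout clones without giving their number or the target site, so an effect of the genotype and an effect of a clone cannot be told apart. The remaining 6 libraries, 3 of each genotype in medium without the drug, gave the same genotype comparison in untreated cells. The series calls the 3 libraries of a group biological replicates, and p-values measure the spread between these libraries only.

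ANT1 is 1 of the adenine nucleotide translocases, carriers of the mitochondrial inner membrane that bring cytosolic ADP into the matrix and release newly made ATP. They have also been linked to the permeability transition pore and to mitophagy. Bleomycin cuts DNA strands, causes lung fibrosis in patients and animals, and drives cultured epithelial cells into senescence. Senescent cells stop dividing through p53 and its target p21, and release cytokines, chemokines, growth factors and proteases, known together as the senescence-associated secretory phenotype, whose cytokine genes are targets of the transcription factor NF-kB.

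The 6 bleomycin libraries held 15.75 to 18.93 megacounts. Neither the totals (exact permutation test, two-sided p = 0.6, n = 3 and 3) nor the share of counts from the mitochondrial chromosome, 4.29% to 5.13% in wild type and 4.39% to 5.03% in knockout (exact permutation p = 0.7), separated the genotypes. More genes had a count in the wild type libraries, 26858 to 27175, than in the knockout libraries, 26350 to 26453 (exact permutation p = 0.1, the smallest that 3 against 3 allow). The first principal component of log2 counts held 28.7% of the variance and placed the wild type libraries between -23.87 and -8.748 and the knockout libraries between 15.67 and 17.3. The second component held 21.97% and set wild type replicate 3 (22.69) and knockout replicate 2 (17.2) apart from the other 4 libraries (-18.47 to -6.487). Of the 12 bronchial epithelial markers 11 were tested and 0 were called, with a summed level of 1892 to 2212 CPM in wild type and 2072 to 2185 CPM in knockout. In the fit without wild type replicate 3, 3 of these markers were called higher in knockout. CPM is counts per megacount of the library after scaling with TMM, edgeR's between-library normalisation. Leukocyte markers (10 genes) summed to 7.94 to 8.82 and 7.52 to 11.8 CPM, fibroblast markers (12 genes, LUM at 0) to 875 to 920 and 806 to 1056 CPM. The 9 alveolar markers (SFTPA1 at 0) summed to 52.2 to 63.0 and 64.4 to 71.8 CPM, and the 8 endothelial markers to 9.46 to 11.7 and 12.5 to 17.1 CPM, so these last 2 sums did not overlap between the genotypes. Among the untreated libraries, knockout replicate 2 stood apart, with 0.364% of its counts from the mitochondrial chromosome, and comparisons in control medium are given with and without it.

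SLC25A4 (ENSG00000151729, GRCh38 chr4:185143241-185150382) was at 16.3, 22.6 and 27.8 CPM in the wild type libraries and at 4.76, 4.14 and 5.06 CPM in the knockout libraries. The 2 sets of values did not overlap, and some transcript remained in each knockout library. The transcript was 4.78-fold lower in knockout (log2 fold change -2.26, SE 0.18, edgeR quasi-likelihood test, Benjamini-Hochberg adjusted p = 2.38e-05), the largest fold among the called genes. Fold changes are knockout against wild type throughout, so a negative log2 value is lower in knockout.

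The other translocases did not differ beyond the replicate spread. SLC25A5, the gene of ANT2, the form of growing cells, was at 324, 341 and 381 CPM in wild type and 345, 378 and 342 CPM in knockout (log2 fold change 0.03, SE 0.07, adjusted p = 0.914 in edgeR). SLC25A6, which encodes ANT3, was at 265, 253 and 288 CPM against 278, 260 and 271 CPM (0.00, SE 0.07, adjusted p = 0.984). Per transcript length, wild type cells held 4.50 FPKM of SLC25A4 beside 227 FPKM of SLC25A5 and 122 FPKM of SLC25A6, so SLC25A4 was the least abundant of the 3. SLC25A31, the germ cell form, had at most 0.110 CPM in a library and was not tested. Reads of such close paralogs can be split between genes by the counting, and their values are uncertain to that extent.

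Across the transcriptome, 312 of 16106 tested genes were called at an adjusted p below 0.05, or 1.94%, with 162 higher (1.01%) and 150 lower (0.931%) in knockout. The differences were small: the median fold of the called genes was 1.34, 23 reached 2-fold, and of those 8 were higher and 15 lower. The median log2 fold change of all tested genes was 2.74e-05. All 312 called genes had knockout and wild type libraries that did not overlap, which held for 18.8% of all tested genes. Where a lack of overlap is given below for a called gene, it therefore adds nothing to the call. The count depended on single libraries. It was 75 without knockout replicate 3, 78 without wild type replicate 2, 152 without wild type replicate 1, 163 without knockout replicate 1, 398 without knockout replicate 2 and 595 without wild type replicate 3. It was 8 when all 12 libraries shared 1 estimate of the spread, and 294 when knockout control replicate 2 was left out of that fit. In each of these fits all 312 genes kept their direction, but their lack of overlap left little room for another outcome. In bulk RNA, a lower level in every cell and fewer cells that express a gene cannot be told apart.

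**Figure D1:**
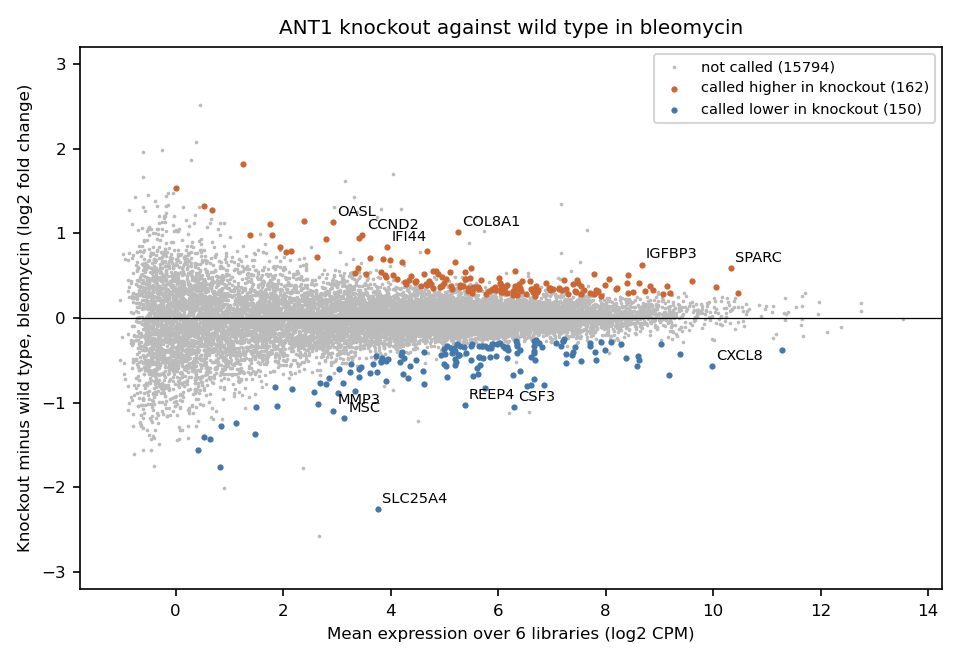
Knockout over wild type in bleomycin, as a log2 fold change (y axis), against mean expression in log2 CPM (x axis) for the 16106 tested genes, 1 of which lies outside the axis. The 162 genes called higher are orange and the 150 called lower are blue; most called genes lie within 2-fold of no difference, and SLC25A4 is the lowest called point at -2.26.

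Among the 41 gene lists, which were chosen with earlier results of these data known, the secreted factors of senescence had the most called members. Of 33 tested genes of the secretory list, 13 were lower in knockout and 1 was higher, together 42.4% of the list against 1.94% of all tested genes, with a median log2 fold change of -0.33. In 15 of the 33 the knockout values lay below the wild type values without overlap, which held for 9.72% of all tested genes. The lower members were the neutrophil-attracting chemokines CXCL1, CXCL2, CXCL3, CXCL5, CXCL6 and CXCL8, the cytokines IL1B, IL11 and GDF15, the granulocyte growth factor CSF3, the EGF receptor ligand EREG and the matrix metalloproteinases MMP1 and MMP3. The higher one was IGFBP3, a binding protein for insulin-like growth factors. The remaining 19 were not called. The number of members called lower ranged from 6 without knockout replicate 3 to 15 without knockout replicate 2, and was 2 when all 12 libraries shared 1 estimate of the spread.

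CXCL8, interleukin 8, was at 1131, 1169 and 1309 CPM in wild type and at 771, 917 and 753 CPM in knockout (log2 fold change -0.56, SE 0.08, edgeR adjusted p = 0.0013). CXCL5 was at 60.4, 65.1 and 55.8 CPM against 35.4, 40.2 and 39.3 CPM (-0.66, SE 0.08, adjusted p = 0.000274), and CXCL6 at 24.3, 19.9 and 23.9 CPM against 13.4, 15.9 and 13.8 CPM (-0.66, SE 0.11, adjusted p = 0.00357). CXCL3 was at 22.5, 27.2 and 23.9 CPM against 14.8, 15.4 and 14.7 CPM (-0.71, SE 0.10, adjusted p = 0.00101). The 3 knockout libraries were below the 3 wild type libraries for each of these 4 chemokines, and each kept its call when any 1 library was left out. CXCL1, the GRO-alpha chemokine, was at 456, 453 and 470 CPM against 306, 381 and 291 CPM (-0.50, SE 0.09, adjusted p = 0.00531; at most 0.0665, without knockout replicate 3). CXCL2 had the smallest difference of the 6, at 64.8, 76.2 and 72.7 CPM against 47.2, 61.1 and 48.6 CPM (-0.44, SE 0.09, adjusted p = 0.0232). Its call was lost without wild type replicate 2, knockout replicate 1 or knockout replicate 3, with an adjusted p of up to 0.165. In all 6 chemokine genes the highest knockout library was replicate 2. CXCL1, CXCL2 and CXCL3 are near-identical copies, as are CXCL5 and CXCL6, and the split of reads within each set is uncertain.

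The 6 chemokine genes lie together on chromosome 4 and are textbook NF-kB targets, so their promoter sequences are shown. The stretches run from 120 to 51 bases before the RefSeq start (GRCh38.p14), written 5′ to 3′ on the strand of the gene, with the letters GGAATTTCC, 1 form of the NF-kB motif, in capitals.
CXCL8: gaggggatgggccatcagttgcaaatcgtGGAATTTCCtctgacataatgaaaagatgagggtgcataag
CXCL1: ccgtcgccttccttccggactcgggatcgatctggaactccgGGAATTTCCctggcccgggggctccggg
CXCL2: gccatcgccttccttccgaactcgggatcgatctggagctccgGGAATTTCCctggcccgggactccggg
CXCL3: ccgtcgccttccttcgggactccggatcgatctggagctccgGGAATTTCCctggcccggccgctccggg
CXCL5: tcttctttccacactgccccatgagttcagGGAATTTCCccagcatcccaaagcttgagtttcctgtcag
CXCL6: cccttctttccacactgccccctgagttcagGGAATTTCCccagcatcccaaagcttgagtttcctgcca
These are chr4:73740449-73740518 (CXCL8, plus strand), chr4:73869273-73869342 (CXCL1, plus), chr4:74099246-74099315 (CXCL2, minus), chr4:74038740-74038809 (CXCL3, minus), chr4:73998728-73998797 (CXCL5, minus) and chr4:73836558-73836627 (CXCL6, plus).

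The letters GGAATTTCC, searched on both strands in the 250 bases before each start, occurred in 117 of 27305 RefSeq promoters, or 0.428%. Among the tested genes they occurred in 46 of 10973 with a promoter in the table (0.419%). They were in 6 of the 116 genes called lower that had a promoter (5.17%), which are the 6 chemokines, and in 0 of the 109 called higher. Within the secretory list they were in 6 of the 10 called lower and in 0 of the 11 not called that had a promoter. The 6 chemokine genes lie in 1 cluster and include near-identical copies, so these shares do not rest on independent genes. Only this 1 form of the motif was searched, the form that all 6 chemokine promoters hold. The shares depend on that choice, and genes with other forms could not be counted. A match of these letters is a description of the sequence and no evidence of binding. NFKB1, REL, NFKBIA, NFKBIZ and ICAM1, of the NF-kB subunit and feedback list, also held the letters and were not called.

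Outside the chemokines, CSF3, the gene of G-CSF (GRCh38 chr17:40015361-40017813), was at 110, 120 and 87.7 CPM in wild type and 46.2, 60.1 and 47.0 CPM in knockout. It was 2.07-fold lower (log2 fold change -1.05, SE 0.13, edgeR adjusted p = 0.00531) and kept its call without each library in turn and in all of the 11 other settings. EREG, epiregulin, was at 60.8, 80.4 and 64.8 CPM against 32.7, 44.9 and 38.4 CPM (-0.82, SE 0.12, adjusted p = 0.00635; 0.0611 without knockout replicate 3). IL1B and IL11 showed smaller differences whose calls rested on several libraries. IL1B, a master inflammatory cytokine, was at 280, 268 and 310 CPM against 197, 250 and 214 CPM (-0.38, SE 0.08, adjusted p = 0.0272; called in 2 of 6 fits that left out a library, at most 0.148). IL11, a cytokine of the IL6 family studied in fibrosis, was at 177, 178 and 214 CPM against 125, 163 and 133 CPM (-0.44, SE 0.10, adjusted p = 0.045; 1 of 6, at most 0.187). No knockout library of these 4 genes reached the lowest wild type library.

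IL6 was not called, although its values did not overlap: 91.8, 108 and 103 CPM in wild type and 37.0, 61.8 and 39.4 CPM in knockout (log2 fold change -1.13, SE 0.21, edgeR adjusted p = 0.0866). Other major members showed no difference beyond their spread. IL1A, the membrane-bound interleukin 1, was at 64.0, 73.6 and 80.4 CPM against 59.2, 78.3 and 67.6 CPM (-0.09, adjusted p = 0.772), and CSF2, the gene of GM-CSF, at 131, 143 and 157 CPM against 128, 142 and 132 CPM (-0.10, adjusted p = 0.598). The EGF receptor ligand AREG was at 248, 269 and 258 CPM against 168, 280 and 197 CPM (-0.26, SE 0.19, adjusted p = 0.625), and its groups overlapped through knockout replicate 2. These 4 genes were chosen for their prominence in the list after their values had been seen. In the opposite direction, IGFBP3 (GRCh38 chr7:45912245-45921874) was at 302, 307 and 349 CPM in wild type and 516, 443 and 523 CPM in knockout, 1.55-fold higher (0.63, SE 0.08, adjusted p = 0.000274), with a call in each fit that left out a library.

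**Figure D2:**
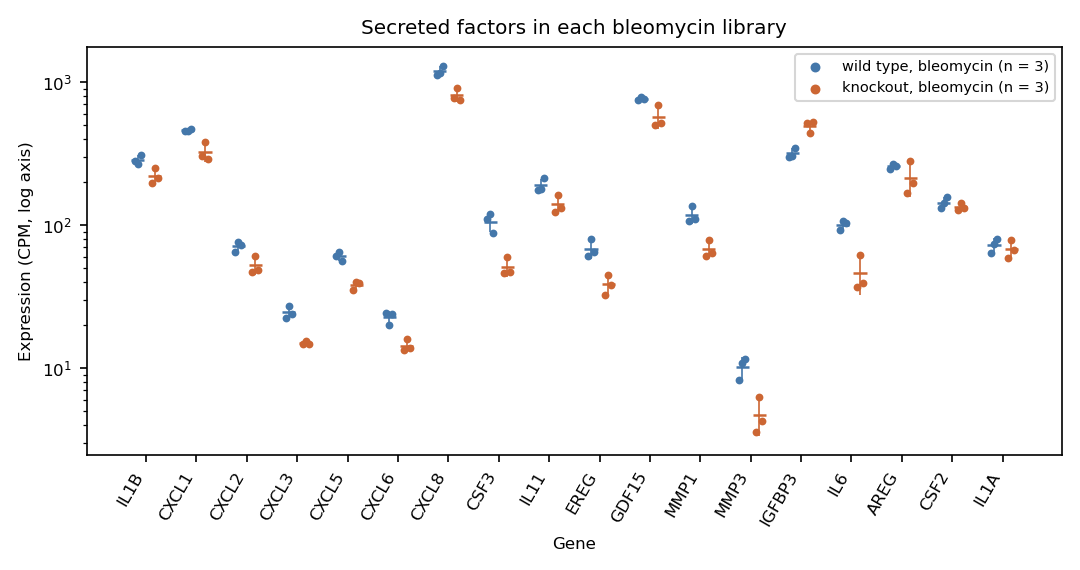
Expression in CPM (log axis) of 18 secreted factors in each bleomycin library, wild type in blue and knockout in orange, with horizontal lines at the mean and vertical bars of 1 SD (n = 3). The 13 genes from IL1B to MMP3 were called lower, IGFBP3 was called higher, and IL6, AREG, CSF2 and IL1A were not called.

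Of 17 NF-kB subunits and feedback genes, 2 were called, both lower: TNFAIP3 and BIRC3 (11.8%, against 1.94% of all tested genes, median of the list -0.03). TNFAIP3, the ubiquitin-editing enzyme A20 that restrains NF-kB and is itself an NF-kB target, was at 254, 278 and 260 CPM in wild type and 175, 199 and 187 CPM in knockout (log2 fold change -0.50, SE 0.07, edgeR adjusted p = 0.000772). BIRC3, the ubiquitin ligase cIAP2, was at 86.7, 86.9 and 106 CPM against 65.9, 69.3 and 74.7 CPM (-0.42, SE 0.08, adjusted p = 0.0143; 0.0686 without knockout replicate 1). Neither gene's groups overlapped. The inhibitor NFKBIA was at 113, 108 and 116 CPM against 120, 112 and 110 CPM (0.02, adjusted p = 0.925). The interleukin 1 and Toll-like receptor signalling kinase IRAK1 and its relative IRAK3, named after their values had been seen, were lower too, IRAK1 with 442, 451 and 448 CPM against 350, 308 and 327 CPM (-0.44, adjusted p = 0.00161) and IRAK3 with 18.9, 18.6 and 16.3 CPM against 13.4, 12.8 and 12.3 CPM (-0.48, adjusted p = 0.027).

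Among 29 matrix proteases and their inhibitors, 4 were lower and 2 higher, 20.7% of the list against 1.94% of all tested genes. The calls are not all separate from those of other lists: MMP1 and MMP3 also belong to the secretory list, and F3 to a list described below. MMP1, interstitial collagenase, was at 107, 137 and 111 CPM in wild type and 61.2, 78.5 and 64.4 CPM in knockout (log2 fold change -0.80, SE 0.11, edgeR adjusted p = 0.00263). MMP2, gelatinase A, was at 103, 95.9 and 87.8 CPM against 57.3, 66.3 and 55.8 CPM (-0.68, SE 0.08, adjusted p = 0.000229). MMP3, stromelysin 1, was 2.13-fold lower, at 8.21, 10.8 and 11.5 CPM against 3.60, 6.29 and 4.29 CPM (-1.09, SE 0.19, adjusted p = 0.00631; 0.068 without knockout replicate 3). SERPINB2, the plasminogen activator inhibitor PAI-2, was also lower, at 127, 168 and 145 CPM against 77.2, 98.9 and 78.5 CPM (-0.79, SE 0.12, adjusted p = 0.00711). The knockout libraries were below the wild type libraries in all 4. The higher members were MMP24, a membrane-bound metalloproteinase (0.43, SE 0.10, adjusted p = 0.0284, called in 3 of 6 fits that left out a library), and F3, tissue factor, the starter of coagulation, at 160, 143 and 158 CPM against 211, 202 and 203 CPM (0.42, SE 0.07, adjusted p = 0.00241).

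Interferon-stimulated genes had positive fold changes throughout, with few calls. All 33 tested members lay above 0 (median log2 fold change 0.69), and 16 of the 33 were higher without overlap between the genotypes (9.06% of all tested genes were). Called were 3, OASL, IFI44 and XAF1, or 9.09% of the list against 1.94% of all tested genes. OASL, a 2'-5' oligoadenylate synthetase-like antiviral protein, was at 4.08, 3.89 and 6.05 CPM in wild type and 7.39, 14.1 and 9.19 CPM in knockout (1.13, SE 0.24, edgeR adjusted p = 0.033). IFI44 was at 11.8, 10.0 and 10.9 CPM against 14.4, 24.8 and 19.1 CPM (0.84, SE 0.16, adjusted p = 0.021). XAF1, a proapoptotic interferon target, was at 6.17, 4.12 and 3.73 CPM against 7.2, 11.2 and 8.42 CPM (0.94, SE 0.20, adjusted p = 0.0262). Each of the 3 was called in 2 or 3 of the 6 fits that left out a library, with adjusted p-values of at most 0.189, 0.136 and 0.167.

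The interferon list varied within the knockout group. Knockout replicate 2 was the highest library for 32 of the 33 genes. The ratio of each gene to its wild type mean had a median of 1.12 in knockout replicate 1, 2.27 in replicate 2 and 1.45 in replicate 3, against 1.02, 0.924 and 1.03 in the wild type libraries. Summed over the list, expression was 1389, 1331 and 1404 CPM in wild type and 1548, 2981 and 2002 CPM in knockout, so the sums did not overlap. Without knockout replicate 2 the list median was 0.38, 32 members were positive and 5 were called. Without knockout replicate 1 the median was 0.92 and 13 were called, and without replicate 3 it was 0.76 and 0 were called.

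**Figure D3:**
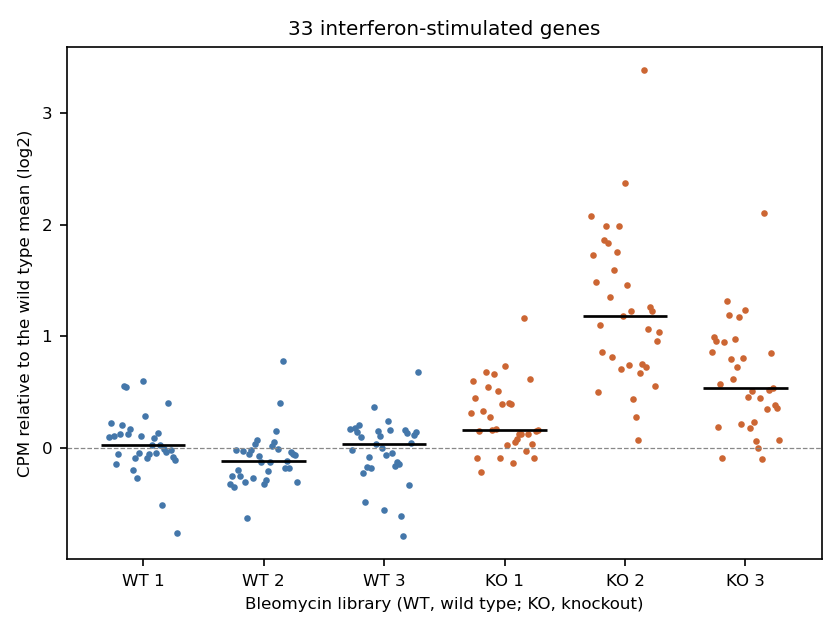
Level of each of 33 interferon-stimulated genes in each bleomycin library, as the log2 ratio of its CPM to the wild type mean, with a black line at the median of the library. The wild type medians lie near 0, and the knockout libraries differ among themselves, with replicate 2 the highest.

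Interferon-stimulated response elements are shown for IFI44, the called member with a match, and for IFIT1, an antiviral RNA-binding protein that was not called (11.3, 8.41 and 11.9 CPM against 13.1, 44.5 and 19.1 CPM; log2 fold change 1.29, SE 0.56, adjusted p = 0.42 in edgeR) and was chosen after its values had been seen because its promoter holds the letters at 2 places. IFI44 is shown from 70 to 1 and IFIT1 from 140 to 71 bases before the RefSeq start, on the gene strand, with the element in capitals, read here as its reverse complement, TTTC, any 2 bases and TTTC.
IFI44: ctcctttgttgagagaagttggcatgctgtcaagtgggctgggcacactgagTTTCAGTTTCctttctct
IFIT1: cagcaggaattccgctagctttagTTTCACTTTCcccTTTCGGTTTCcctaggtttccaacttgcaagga
They lie at chr1:78649719-78649788 and chr10:89392483-89392552 of GRCh38.p14, both on the plus strand. The element, searched as GAAA, any 2 bases and GAAA on either strand of the 250 bases before the start, were in 839 of 27305 RefSeq promoters (3.07%), in 15 of the 25 tested interferon genes that had a promoter (60%) and in 2.42% of all tested genes. Of the genes called higher, 2 of 109 held them (1.83%), LGALS3BP and IFI44.

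Matrix and adhesion genes were called in both directions. Of 23 collagens 3 were higher and 0 lower (13.04%, against 1.94% of all tested genes, median -0.02). COL8A1, a short-chain collagen of basement membranes (GRCh38 chr3:99638475-99799226), was at 24.6, 23.2 and 28.1 CPM in wild type and 51.3, 46.9 and 55.6 CPM in knockout, 2.02-fold higher (log2 fold change 1.02, SE 0.09, edgeR adjusted p = 1.41e-05), and was called in each of the 6 fits without a library and in the 11 other settings. COL4A2, a basement membrane collagen, was at 402, 377 and 402 CPM against 532, 453 and 548 CPM (0.38, SE 0.08, adjusted p = 0.0143; 3 of 6 such fits, at most 0.139), and COL13A1, a transmembrane collagen, at 29.9, 23.4 and 28.2 CPM against 40.3, 33.4 and 35.4 CPM (0.42, SE 0.10, adjusted p = 0.0394; 3 of 6, at most 0.274). The fibrillar COL1A1 was at 603, 579 and 568 CPM against 695, 469 and 519 CPM (-0.06, SE 0.12, adjusted p = 0.891). All 3 called collagens had groups that did not overlap, as every called gene did, and those of COL1A1 overlapped.

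SPARC, a matricellular protein that binds collagen, was higher, at 1018, 894 and 1178 CPM in wild type and 1547, 1518 and 1587 CPM in knockout (log2 fold change 0.59, SE 0.09, edgeR adjusted p = 0.00125). FN1, fibronectin, was lower, at 2943, 2885 and 2564 CPM against 2244, 1964 and 2250 CPM (-0.38, SE 0.08, adjusted p = 0.021; called in 1 of 6 fits that left out a library, at most 0.157). They were the 2 called of 20 myofibroblast and mesenchymal genes (10%, against 1.94% of all tested genes). ACTA2, smooth muscle actin, was at 60.3, 65.2 and 62.7 CPM against 59.2, 70.2 and 66.7 CPM (0.06, adjusted p = 0.786). Of 25 integrins and laminins, ITGB4, the hemidesmosome integrin, was higher (0.43, SE 0.08, adjusted p = 0.00685; 0.0738 without wild type replicate 2) and ITGA2, a collagen receptor subunit, was lower (-0.42, SE 0.08, adjusted p = 0.00791; up to 0.0807 without wild type replicate 1 or 2). Of 28 keratin and squamous genes, KRT81 was lower (-0.51, SE 0.07, adjusted p = 0.000772) and KRT80 and the plakophilin PKP3 were higher (0.54, adjusted p = 0.00679, lost without wild type replicate 2 at 0.0713, and 0.38, adjusted p = 0.0382, called in 1 of 6 fits that left out a library). Called were thus 8% of the integrins and laminins and 10.7% of the keratin and squamous genes. The 22 epithelial identity genes had 0 calls, with a median of 0.02.

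Targets of YAP and TAZ, the transcriptional effectors of the Hippo pathway, were called in 1 direction: 6 of 18 were higher (33.3%, against 1.01% of all tested genes) and 0 lower, 17 of the 18 fold changes were positive, and the median was 0.21. The 6 were ANKRD1, CYR61, CRIM1, TEAD4, F3 and NT5E, of which CYR61, F3 and NT5E belong to other lists here too. ANKRD1, a cardiac ankyrin repeat protein and sensitive YAP target, was at 21.0, 20 and 26.2 CPM in wild type and 28.1, 35 and 35.8 CPM in knockout (log2 fold change 0.56, SE 0.11, edgeR adjusted p = 0.018; 3 of 6 fits without a library, at most 0.135). CYR61, a matricellular integrin ligand, was at 500, 441 and 524 CPM against 662, 596 and 652 CPM (0.38, SE 0.08, adjusted p = 0.0124; 3 of 6, at most 0.142). No library of 1 genotype reached into the other for these 2 genes. YAP1 itself had a log2 fold change of 0.00 (adjusted p = 0.993) and CTGF one of 0.36 (SE 0.15, adjusted p = 0.297). Leaving out wild type replicate 2 or knockout replicate 3 left 1 gene of the list called higher, leaving out wild type replicate 1 or knockout replicate 1 left 2, and leaving out wild type replicate 3 gave 7 higher and 1 lower.

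In the TGF-beta superfamily list 3 of 31 genes were lower and 1, CYR61, higher (12.9% called, against 1.94% of all tested genes, median -0.09). GREM1, gremlin, a secreted antagonist of bone morphogenetic proteins, was at 442, 464 and 468 CPM in wild type and 300.2, 316 and 309 CPM in knockout (log2 fold change -0.57, SE 0.06, edgeR adjusted p = 0.000132). SKIL, a feedback repressor of SMAD signalling, was at 57.9, 57.8 and 58.4 CPM against 43.1, 39.0 and 44.5 CPM (-0.46, SE 0.08, adjusted p = 0.00282). Both kept their calls without each library in turn, and ID2, a target of bone morphogenetic proteins, did so in 1 of 6 (-0.50, SE 0.12, adjusted p = 0.0304, at most 0.168). TGFB1 was at 169, 155 and 148 CPM against 154, 143 and 131 CPM (-0.14, adjusted p = 0.398).

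Of 29 Notch and Wnt genes 5 were higher and 1 lower (20.7% called, against 1.94% of all tested genes, median -0.01). WNT5B, a Wnt ligand of the noncanonical branch, was at 35.1, 33.3 and 38.8 CPM in wild type and 55.5, 51.2 and 55.5 CPM in knockout (log2 fold change 0.60, SE 0.08, edgeR adjusted p = 0.000646). JAG1, a Notch ligand, was at 121, 125 and 115 CPM against 80.9, 87.4 and 87.5 CPM (-0.49, SE 0.07, adjusted p = 0.000646), and the other Jagged ligand, JAG2, at 30.6, 31.0 and 29.4 CPM against 43.3, 38.6 and 36.4 CPM (0.38, SE 0.09, adjusted p = 0.0284). The 2 Jagged ligands were thus called in opposite directions, with JAG2 called in 2 of 6 fits that left out a library and JAG1 in all 6. The Wnt inhibitors SFRP1 (0.35) and DKK3 (0.33) and the receptor FZD2 (0.38) were the other higher members, with adjusted p-values of 0.0244, 0.0157 and 0.0324, and were called in 4, 3 and 3 of those 6 fits.

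The hypoxia response list had 4 of 19 members higher and 0 lower (21.1%, against 1.94% of all tested genes, median 0.08). LOX, lysyl oxidase, which crosslinks collagen and elastin, was at 215, 208 and 252 CPM in wild type and 308, 300.2 and 318 CPM in knockout (log2 fold change 0.46, SE 0.07, edgeR adjusted p = 0.00278). Its relative LOXL2 was at 1329, 1188 and 1297 CPM against 1606, 1468 and 1589 CPM (0.29, SE 0.07, adjusted p = 0.0489), and the pH-regulating carbonic anhydrase CA9 at 3.35, 3.13 and 3.03 CPM against 6.81, 4.95 and 4.79 CPM (0.79, SE 0.20, adjusted p = 0.0437). NDRG1, a stress-responsive protein, was the fourth (0.34, SE 0.08, adjusted p = 0.0408). The groups did not overlap for any of the 4, LOX was called without each library in turn, and CA9, NDRG1 and LOXL2 were called in 1 or 2 of those 6 fits. None of 23 glycolysis genes was called (median 0.09), against 1.94% of all genes. Without wild type replicate 3, and without knockout replicate 2, 1 glycolysis gene was called lower.

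**Figure D4:**
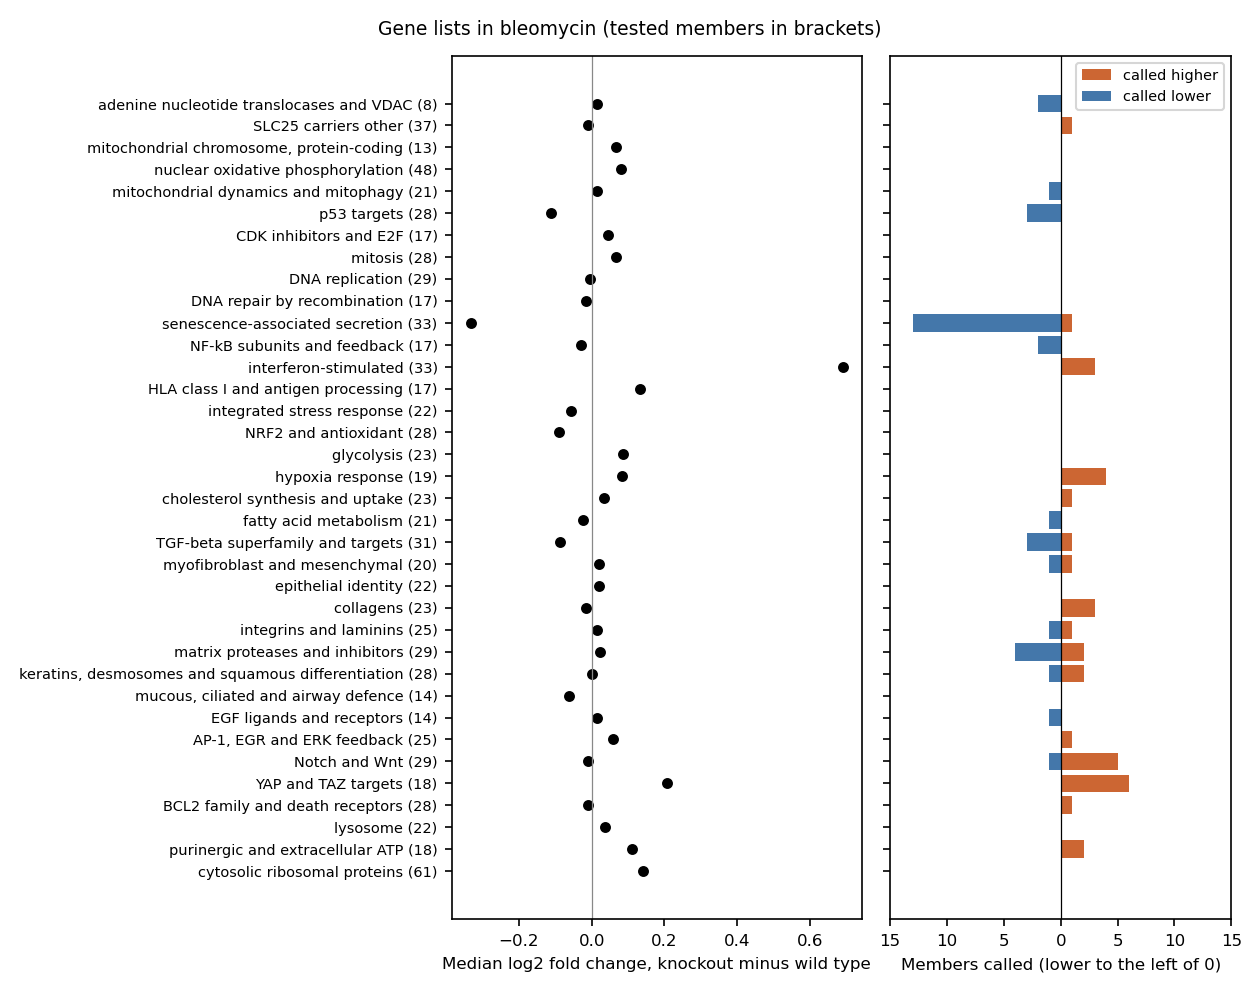
For each gene list, the median log2 fold change of its tested members in bleomycin (left, black points) and the number of members called higher (orange, to the right of 0) or lower (blue, to the left). The secretory list has the most called members, 13 lower and 1 higher, and the interferon list the largest median, 0.69, with 3 called.

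With all 6 libraries, 1.94% of all tested genes were called. Of 48 nuclear oxidative phosphorylation genes 0 were called (median 0.08), and of the 13 protein-coding genes of the mitochondrial chromosome 0 were called (median 0.07). Without wild type replicate 3, 7 and 2 of them were called higher, with medians of 0.17 and 0.19. Without knockout replicate 2 the medians were 0.000911 and 0.0445 with 0 called, and without knockout replicate 1 1 gene of the mitochondrial chromosome was called lower. The oxidative phosphorylation median was also lower without wild type replicate 1 (0.0190) or 2 (0.0391) and higher without knockout replicate 3 (0.125), with 0 called. ATP5F1B, a catalytic subunit of ATP synthase, was at 470, 468 and 518 CPM in wild type and 457, 496 and 470 CPM in knockout (log2 fold change -0.03, SE 0.07, edgeR adjusted p = 0.887). TSPO, the outer membrane translocator protein (GRCh38 chr22:43151514-43163242), was lower, at 124, 116 and 138 CPM against 78.4, 74.5 and 77.3 CPM, or 1.64-fold (-0.71, SE 0.07, adjusted p = 4.02e-05), without overlap and with a call in each fit that left out a library. Of 37 other carriers of the SLC25 family 1 was called (2.7%, near the 1.94% of all tested genes). It was UCP2, an inner membrane carrier of the uncoupling protein family, at 16.8, 16.4 and 17.8 CPM against 23.8, 23.5 and 22.6 CPM (0.45, SE 0.09, edgeR adjusted p = 0.0183, called in 2 of 6 fits that left out a library, at most 0.129). VDAC1, the outer membrane pore, was at 274, 275 and 315 CPM against 308, 328 and 309 CPM (0.13, adjusted p = 0.429). Of 21 mitochondrial dynamics and mitophagy genes 1 was called (4.76%). It was BCL2L13, a mitophagy receptor, which was lower (-0.33, SE 0.07, edgeR adjusted p = 0.0197, called in 2 of 6 fits that left out a library, at most 0.108). Of 18 purinergic genes 2 were called, both higher (11.1%). They were AK4, the adenylate kinase of the mitochondrial matrix, and NT5E, the ectoenzyme CD73 that turns AMP into adenosine. Their log2 fold changes were 0.39 (edgeR adjusted p = 0.019) and 0.26 (adjusted p = 0.044), with calls in 3 and 1 of 6 fits that left out a library.

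Of 28 p53 targets 3 were lower, TP53INP1, GDF15 and RRM2B (10.7% of the list, against 1.94% of all genes called), and 0 were higher. GDF15 also belongs to the secretory list. Of the 28 fold changes 22 were negative (median -0.11), and 9 targets were lower without overlap, which held for 9.72% of all tested genes. The 3 calls were absent without wild type replicate 1 or 2 or knockout replicate 1 or 3, where 0 targets were called. CDKN1A, the gene of p21, was at 4695, 4665 and 4815 CPM in wild type and 4009, 4400 and 4197 CPM in knockout (log2 fold change -0.17, SE 0.07, edgeR adjusted p = 0.31), without overlap and not called. GDF15, a stress-induced cytokine, was at 752, 782 and 767 CPM against 504, 689 and 521 CPM (-0.42, SE 0.10, adjusted p = 0.0434; called in 1 of 6 fits that left out a library, at most 0.191). TP53INP1, a p53 cofactor, was at 269, 272 and 258 CPM against 214, 213 and 229 CPM (-0.29, SE 0.06, adjusted p = 0.0276; 1 of 6, at most 0.188), and RRM2B, a ribonucleotide reductase subunit used in DNA repair, at 295, 316 and 290 CPM against 227, 258 and 256 CPM (-0.28, SE 0.07, adjusted p = 0.044; 2 of 6, at most 0.301). None of the 28 mitosis, 29 DNA replication, 17 recombination repair and 17 CDK inhibitor and E2F genes was called. Without wild type replicate 3, 2 mitosis genes were called higher and 2 CDK inhibitor and E2F genes lower. The other fits that left out a library called no member of these lists. MKI67, the proliferation marker Ki-67, was at 289, 301 and 253 CPM against 282, 264 and 306 CPM (0.02, adjusted p = 0.952), and CDKN2A, the gene of p16, at 278, 276 and 304 CPM against 318, 315 and 299 CPM (0.12, adjusted p = 0.433).

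No call was made either among 22 integrated stress response genes (median -0.06), 28 NRF2 and antioxidant genes (-0.09), 22 lysosome genes (0.04), 17 HLA and antigen processing genes (0.13), 14 mucous, ciliated and airway defence genes (-0.06) and 61 cytosolic ribosomal protein genes, of which 59 had positive fold changes with a median of 0.14. The ribosomal list depended on 1 library. Without wild type replicate 3, 26 of its members were called higher and the median was 0.24. The other fits that left out a library called 0 of them, with medians of 0.0840 to 0.178. Of the NRF2 list, 2 members were called higher without wild type replicate 3 and 3 lower without knockout replicate 2. Without wild type replicate 3, the HLA and the mucous list had 1 member each called higher. Without knockout replicate 2, 1 stress response gene was called lower. In lipid metabolism SCD, the desaturase that makes oleate, was lower, at 45.2, 43.9 and 42.0 CPM in wild type and 28.5, 30.2 and 30.4 CPM in knockout (log2 fold change -0.56, SE 0.08, edgeR adjusted p = 0.00095), as 1 of 21 fatty acid genes. DUSP5, a phosphatase of ERK, was the 1 called of 25 AP-1, EGR and ERK feedback genes, at 41.9, 42.7 and 45.8 CPM against 58.5, 59.5 and 60.2 CPM (0.45, SE 0.07, adjusted p = 0.00263). Of 28 BCL2 family and death receptor genes BOK, a BAX-like effector, was higher (0.33, SE 0.08, adjusted p = 0.0386; 2 of 6 fits that left out a library). EREG, described above, was the 1 called of 14 EGF ligands and receptors. The shares called were 4.76% of the fatty acid list and 4% of the AP-1, EGR and ERK feedback list. They were 3.57% of the BCL2 family list and 7.14% of the EGF list. Over all 41 lists, 33 of 877 tested genes were called higher and 30 lower, or 7.18%, against 1.94% of all tested genes.

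Among all protein-coding genes, the 12 largest called differences in each direction without overlap, at a mean log2 CPM of at least 1, added genes outside those groups. REEP4, an endoplasmic reticulum shaping protein, had the smallest p-value of the comparison, at 53.8, 55.0 and 58.5 CPM in wild type and 28.3, 28.2 and 25.4 CPM in knockout (log2 fold change -1.03, SE 0.08, edgeR adjusted p = 2.49e-06). MSC, the transcription repressor musculin, was at 11.1, 12.9 and 12 CPM against 6.10, 5.54 and 4.29 CPM (-1.18, SE 0.15, adjusted p = 0.000331), and RAB39B, a small GTPase of vesicle transport, at 10.7, 9.63 and 10.5 CPM against 5.53, 5.49 and 5.72 CPM (-0.88, SE 0.14, adjusted p = 0.00222). PTGES, the synthase of prostaglandin E2, was at 8.0, 7.78 and 8.86 CPM against 3.60, 5.92 and 2.64 CPM (-1.01, SE 0.22, adjusted p = 0.0284; 2 of 6 fits that left out a library, at most 0.135). REEP4, MSC and RAB39B kept their calls in all 6. The other lower genes were the cornified envelope gene LCE1C (-1.37), the sodium channel SCN2A (-1.24), FLRT3 (-1.04), ADPRHL1 (-0.87) and the Wnt antagonist FRZB (-0.84), which were called in 3, 1, 2, 4 and 2 of the 6 fits. SLC25A4, MMP3 and CSF3, described above, completed the 12. VAMP7, a SNARE protein of vesicle fusion that was outside these 12 and was named after its values had been seen, was at 116, 121 and 137 CPM against 68.0, 76.0 and 70.5 CPM (-0.80, SE 0.08, adjusted p = 1.91e-05).

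On the higher side CCND2, cyclin D2, was at 7.21, 6.85 and 8.27 CPM in wild type and 12.7, 15 and 16.1 CPM in knockout (log2 fold change 0.98, SE 0.13, edgeR adjusted p = 0.000646). GFRA1, a receptor of the neurotrophic factor GDNF, was at 6.17, 7.60 and 7.94 CPM against 13.4, 12.5 and 15.8 CPM (0.94, SE 0.14, adjusted p = 0.00129), and C1QL1, a secreted C1q-like protein, at 19.6, 14.2 and 21.9 CPM against 34.1, 30.1 and 32.5 CPM (0.79, SE 0.13, adjusted p = 0.00413). All 3 kept their calls without each library in turn and had groups that did not overlap. TIE1, an endothelial receptor kinase and the 1 called gene among the endothelial markers, was at 2.98, 1.97 and 1.84 CPM against 4.05, 5.65 and 3.69 CPM (0.98, SE 0.24, adjusted p = 0.044), and was called in 1 of 6 fits that left out a library. The other higher genes were WISP2 (0.84), FAHD2B (0.78) and EFR3B (0.73), called in 1, 0 and 1 of those 6 fits. OASL, COL8A1, XAF1, IFI44 and CA9, described above, completed the 12.

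The 312 called genes were 289 protein-coding genes and 23 of other biotypes. The long noncoding RNA SFTA1P was at 2.51, 3.25 and 3.78 CPM in wild type and 4.95, 9.04 and 7.04 CPM in knockout (log2 fold change 1.15, SE 0.22, edgeR adjusted p = 0.0118; 3 of 6 fits that left out a library). LINC01629 was at 12.4, 13.9 and 12.4 CPM against 7.13, 8.66 and 5.50 CPM (-0.86, SE 0.15, adjusted p = 0.00531; 0.0583 without knockout replicate 3). The processed pseudogene MEMO1P1 (1.82) and AC144530.1 (1.11) were higher, and GOLGA2P7 (-1.05) and AL353625.1 (-0.71) lower, called in 1, 2, 1 and 3 of those 6 fits. Counts of pseudogenes can hold reads of their parent genes. Among 273 windows of 10 Mb, each holding 15 or more tested genes, 0 had a median log2 fold change beyond 0.3 in either direction. The window with the most called genes was chromosome 4 from 70 to 80 Mb, with 7 of 47 tested, 6 of them the chemokines above and the other EREG.

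The genotype comparison in control medium used libraries that the bleomycin comparison did not. With all 6 control libraries 0 of 15038 genes were called (661 at an unadjusted p below 0.05), and without knockout control replicate 2, 117 of 15410 were (0.759%; 70 higher and 47 lower). In that smaller set, 301 of the 312 genes called in bleomycin were tested, and 260 had the same direction, or 86.4%, against 55.3% of the 14869 genes tested in both media. Of the called genes higher in bleomycin 140 of 161 kept the direction, and of those lower 120 of 140. The median size of their log2 fold change was 0.42 in bleomycin and 0.25 in control medium. A total of 36 genes were called in both media, all with the same direction, which is 11.5% of the bleomycin calls and 30.8% of the control calls. They included SLC25A4, REEP4, COL8A1, TSPO, MSC and VAMP7 and, of the groups above, CXCL1, CXCL2, CXCL6, CXCL8, TNFAIP3, BIRC3, SERPINB2, IRAK1, IRAK3, OASL, IFI44, ANKRD1 and F3. Across the 14869 genes the fold changes in the 2 media had a Pearson r of 0.23 and a Spearman rho of 0.18, over genes, which are not independent replicates.

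Side by side, CXCL8 had a log2 fold change of -0.56 (SE 0.08) in bleomycin and -0.71 (SE 0.13, edgeR adjusted p = 0.0489) in control medium without knockout control replicate 2. CXCL2 had -0.44 and -0.94 (SE 0.14, adjusted p = 0.0102), and TNFAIP3 -0.50 and -0.63 (SE 0.08, adjusted p = 0.00914). The 3 genes were thus lower in knockout in both media. The secretory list had a median of -0.33 in bleomycin and -0.14 in control medium, with 7 members called there, and the interferon list 0.69 and 1.01, with 12 called. For LOX (0.46 and -0.05), JAG1 (-0.49 and -0.01) and CA9 (0.79 and -0.40) the control values were near 0 or opposite, and for none of the 3 was the difference between media called. GDF15 (-0.42 and 0.77) and IL11 (-0.44 and 0.24) had opposite signs.

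**Figure D5:**
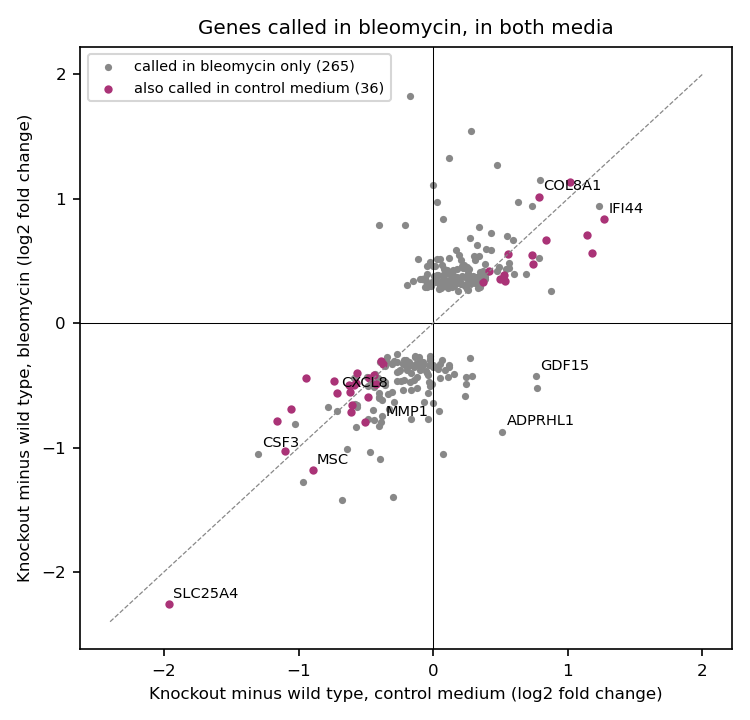
Knockout over wild type in bleomycin, as a log2 fold change (y axis), against the same in control medium without knockout control replicate 2 (x axis), for the 301 genes called in bleomycin and tested in both. Purple points are the 36 called in both media; 260 of the 301 lie in the quadrants of equal sign, and GDF15 and ADPRHL1 are among those that do not.

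Whether the genotype difference depended on the drug was tested with the interaction, the difference in bleomycin minus that in control medium. With all 12 libraries 0 of 16702 genes passed (770 at an unadjusted p below 0.05 in edgeR). Without knockout control replicate 2, 9 of 17204 passed (0.0523%), all with a negative interaction, and these 9 were named after their values had been seen. CDKN1A had an interaction of -0.84 (SE 0.12, adjusted p = 0.00774), from a log2 fold change of 0.66 in control medium and -0.17 in bleomycin. RRM2B, the 1 gene also called in the bleomycin comparison, had -0.57 (SE 0.10, adjusted p = 0.0497), from 0.27 and -0.28. The phosphatase gene INPP5D had -1.88 (SE 0.22, adjusted p = 0.000664), from 1.83 and -0.05. AKAP9, CYFIP2, THBD, GALNT5, TLR4 and CAVIN2 had interactions between -0.87 and -0.76. For each of the 9 apart from RRM2B, the knockout was not called different from wild type in bleomycin. The p53 list had a median of 0.20 in control medium with 3 members called, against -0.11 in bleomycin.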

How the data were processed

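Per the labels, poly(A) RNA of Beas-2b cells was sequenced, 3 libraries in each of 4 groups of genotype and treatment. The submitters' processing notes name HISAT2 2.0.5 for alignment and featureCounts 1.5.0-p3 for counting. The authors deposited raw counts and FPKM values for 58735 genes, with every position as in GENCODE release 29 (GRCh38), and 0 entries named no gene. Build and strand setting are not given in the sources used here; overlapping or antisense genes can therefore share reads. The 2 tables name 27 genes differently and were joined by identifier.

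The 6 bleomycin libraries were fitted with edgeR 4.0.16 (R 4.3.3; TMM, filterByExpr, robust quasi-likelihood test), with Benjamini-Hochberg adjustment over all genes tested and a threshold of 0.05. The control libraries were fitted separately, so CPM levels are not compared across media. The interaction used all groups. Alternatives were DESeq2 1.42.0, RLE size factors, other filters, all 12 or 11 libraries, no robust estimation, limma 3.58.1 on log2 of the deposited FPKM plus 1 or 0.1, a replicate block, and leaving out each library. The 11-library fits were chosen after seeing the data.

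Named genes were the translocases; the 12 largest called differences each way (protein-coding, mean log2 CPM of at least 1, no overlap) and 3 each way of other biotypes; and up to 4 called members per list, or its 2 most abundant where fewer than 2 were called. Further list members were named outside this rule, among them other called members and the uncalled NFKBIA, YAP1, CTGF, ACTA2, TGFB1 and VDAC1. The comparison and the lists were chosen with earlier results of these data known. On simulated counts of 15837 genes of the bleomycin comparison, 70% of the changes of 0.5 on the log2 scale, 86% of those of 1, 100% of those of 1.5 and 98% of those of 2 were recovered (50 of each), and 14 of 191 calls were false. No change below 0.5 was simulated, and the median size of the called differences was 0.42, so recovery at that size is not known. The recovered and false shares need not hold for weakly expressed genes. They may also be too favourable where many genes of a library shift together, as the interferon list did in knockout replicate 2, which was not tested. A count of 0 allows up to 3 counts, 0.158 to 0.190 CPM, for counting error only. Some genes of the lists are not reported here.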

Additional observations from a re-analysis of the deposited data

Results flagged for a closer look

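In 4 named genes, all from the p53 or cell cycle lists, the knockout libraries lay above the wild type libraries in control medium and below them in bleomycin, with no overlap in either medium when all 6 control libraries were used. That pattern held for 4 of the 120 named genes tested in both media (3.33%), for 6 of the 28 p53 targets (21.4%) and for 58 of all 14683 genes tested in both (0.395%). With all 6 control libraries GDF15 had a log2 fold change of 0.81 in control medium against -0.42 in bleomycin, RRM2B 0.21 against -0.28, E2F7, a repressor of cell cycle genes, 0.0869 against -0.26, and the death receptor TNFRSF10B 0.12 against -0.13. Without knockout control replicate 2 the values in control medium were 0.77, 0.27, 0.11 and 0.11 in the same order. E2F7 (edgeR adjusted p = 0.0516) and TNFRSF10B (0.395) were not called in bleomycin, and none of the 4 passed the interaction with 12 libraries. RRM2B passed the interaction test without knockout control replicate 2 (-0.57, adjusted p = 0.0497), and GDF15 there had -1.20 (adjusted p = 0.052).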

How the results depend on the processing

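All 312 called genes kept their direction in every fit that tested them. Their libraries did not overlap between the genotypes, so leaving out 1 library could hardly reverse a direction. The bleomycin comparison gave 8 calls with all 12 libraries (7 of them among the 312) and 550 with no filter on low counts (311 among the 312). It gave 46 with limma on log2(FPKM + 1) (42 among the 312) and 51 with log2(FPKM + 0.1) (47 among the 312). Leaving out 1 library gave 75 to 595. With 11 libraries, that is without knockout control replicate 2, 294 were called, 247 of them among the 312. DESeq2 called 420 (3125 genes without an adjusted p), RLE size factors 316, a minimum of 1 CPM 315, and no robust estimation 288. Without mitochondrial chromosome genes 320 were called. The called members of the lists, 63, became 5 with all 12 libraries, 105 with no filter, 15 and 19 with the 2 limma fits, and 27 to 123 without 1 library. In control medium the 0 calls became 117 without knockout control replicate 2, 28 with all 12 libraries in 1 fit and 175 with 11. The interaction had 0 calls, 13 with no filter, 9 without knockout control replicate 2, and 0 to 9 over all fits that left out 1 of the 12 libraries. Of the 312 calls 51.9% were higher, and 32.1% to 61.3% in fits without 1 library. The cause of these shifts was not tested. Fits without 1 library also held fewer libraries than the main fit. Same-numbered libraries did not deviate together (correlations 0.0793, -0.0273 and 0.00877), so the numbers were not taken as pairs; a replicate block gave 253 calls in bleomycin (231 shared) and 0 in control medium and in the interaction.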
